A study of Drosophila melanogaster with 12 samples.

Results

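The genes described here are the iron handling genes of *Drosophila* that encode the 3 transferrins (Tsf1, Tsf2 and Tsf3), both chains of the secreted ferritin (Fer1HCH and Fer2LCH) and the metal ion transporter Malvolio (Mvl). They were measured in SL2 cells, an embryonic *Drosophila* line with macrophage-like properties. A member was taken from every probe set that the platform annotation assigns to that gene alone. All 6 of the 6 genes had at least 1 such probe set, and together they had 8, among 11981 genes with a probe set of their own. Tsf1 had 3 probe sets and each of the other genes had 1.

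Cells of 4 groups, with 3 biological repeats in each, were profiled on Affymetrix Drosophila Genome 2.0 arrays. Cells of the first pair of groups received double-stranded RNA (dsRNA) against Tis11 (Tis11 kd) or, as the control, against GFP (GFP kd), at 12.5 µg/ml for 4 days. The second pair received the same dsRNAs and, in addition, 10 µg/ml lipopolysaccharide (LPS) for 4 h before lysis. Every array is therefore from dsRNA-treated cells, and the 12 arrays hold none from cells without dsRNA. All values are log2 signals after Robust Multi-array Analysis (RMA), so that a difference of 1 is a doubling. Tis11 is an RNA-binding protein that recruits mRNA decay factors to AU-rich elements, and the comparisons ask whether the mRNA levels of the iron genes differ after loss of Tis11, after LPS, or after both.

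Transferrins bind ferric iron outside the cell, ferritin stores iron in a protein shell built of heavy and light chains, and transporters such as Mvl move iron across membranes. In flies, Fer1HCH and Fer2LCH carry signal peptides, so that most ferritin lies in the secretory pathway and the hemolymph. In budding yeast, the Tis11 relatives Cth1 and Cth2 promote decay of mRNAs for iron-using proteins when iron is scarce, and in infected flies Tsf1 takes part in withdrawing iron from the hemolymph.

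The whole array set the following frame for these genes. The hemocyte markers Hml, Pxn, NimC1, eater, srp, crq, He and Col4a1 were all expressed, with means over the 12 arrays between 7.20 and 12.05. The 12 measured markers of fat body, midgut, neuron and muscle had means between 3.55 and 6.03, and 1 of the 12 was above 6. Of the 18769 probe sets tested, 11575 had a mean under 6, where signals lie close to the array background and differences are compressed. With LPS, the antimicrobial peptide mRNAs AttD, Mtk, DptB and CecB, and the immune-induced edin, rose by 6.76, 5.17, 3.95, 3.48 and 3.76 (averaged over both dsRNAs), and all 5 passed limma's test with Benjamini-Hochberg adjustment at 0.05. AttD, Mtk and DptB lay under 6 without LPS, so that the measured rises of these 3 can be smaller than those of the mRNAs. The antimicrobial peptide Drs, the remaining 1 of the 6 measured in that list, differed by 0.96 and did not pass. Tis11 had no probe set of its own and was not analysed here, so the arrays give no direct check of the knockdown. The paper reports that its efficiency was checked apart from the arrays, by Northern blot and qPCR.

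No probe set of the 6 iron genes passed in any comparison, and in none were the values of the groups compared free of overlap for any of the 8. Groups of 3 arrays did not overlap for 4.47 and 9.73 percent of all probe sets for Tis11 kd without and with LPS, and for 6.49 and 8.37 percent for LPS in GFP kd and Tis11 kd cells. Over both LPS states this share was 0.144 percent for Tis11 kd. Beside the count of 0 of 8 that passed, limma called 0 percent of all probe sets in both comparisons of Tis11 kd with GFP kd, 0.0533 percent for LPS in GFP kd cells and 0.0799 percent for LPS in Tis11 kd cells. The share was 0 percent for Tis11 kd averaged over both LPS states and for the difference of the LPS effect between dsRNAs, and 0.155 percent for LPS averaged over both dsRNAs. With so few calls on the whole array, a count of 0 among 8 does not set the iron genes apart. The paper instead applied a cutoff on fold change and lists mRNAs raised after Tis11 kd. It verified most of those chosen for qPCR. At an unadjusted limma p under 0.05, the counts over all probe sets were 206, 488, 313 and 508 in the 4 comparisons of 3 arrays against 3, and for the representative probe sets of the 6 iron genes they were 0 in all 4. In bulk RNA, fewer cells expressing a gene and less mRNA per cell cannot be told apart.

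**Figure D1:**
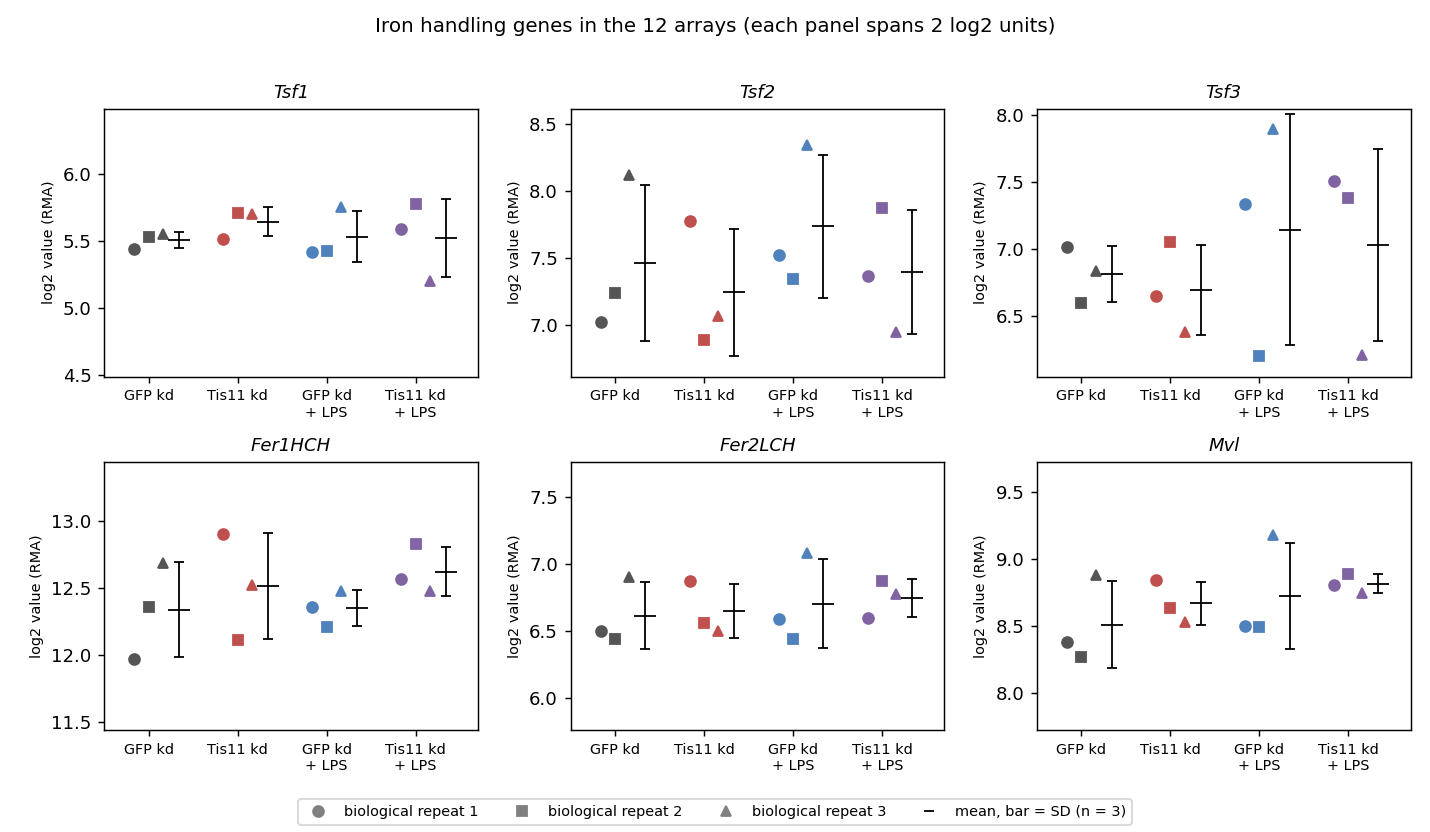
Log2 values (RMA) of the 6 iron handling genes, 1 panel per gene and 1 column per group. Symbols stand for biological repeats 1, 2 and 3, and the black bar is the mean with its SD (n = 3). Every panel spans the same height, and within each gene the 4 groups overlap, from the narrow spread of Tsf1 to the wide spread of Tsf3 in both LPS groups.

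Fer1HCH, the ferritin heavy chain that oxidises ferrous iron, had a strong signal in every array. It read 11.97, 12.35 and 12.68 in GFP kd repeats 1, 2 and 3, and 12.90, 12.11 and 12.52 in Tis11 kd. With LPS it read 12.36, 12.21 and 12.48 in GFP kd and 12.56, 12.82 and 12.47 in Tis11 kd. The highest and lowest of the 12 values, in Tis11 kd repeat 1 and GFP kd repeat 1, are both from cells without LPS. The group means ± SD (n = 3) were 12.34 ± 0.36 in GFP kd, 12.35 ± 0.13 in GFP kd with LPS, 12.51 ± 0.40 in Tis11 kd and 12.62 ± 0.18 in Tis11 kd with LPS. No neighbours in this order differed by more than the larger of their SDs.

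The difference between Tis11 kd and GFP kd in Fer1HCH was 0.18 without LPS (SE 0.25, 95% interval −0.41 to 0.76) and 0.27 with LPS (SE 0.13, 95% interval −0.05 to 0.59). The latter had the lowest unadjusted p of the 6 genes in the comparisons of 3 arrays against 3, 0.082 by limma, and an adjusted p of 1.00. Its groups overlapped, as the lowest Tis11 kd value of 12.47 lay just under the highest GFP kd value of 12.48. Over both LPS states the difference was 0.22 (95% interval −0.11 to 0.56), a range from a 0.926-fold to a 1.47-fold level. The LPS differences of Fer1HCH were 0.01 in GFP kd cells and 0.11 in Tis11 kd cells.

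Fer2LCH, the light chain needed to form the ferritin core, gave a lower signal, but signals of different probe sets cannot be ranked. Its values were 6.50, 6.44 and 6.90 in GFP kd, and 6.87, 6.56 and 6.50 in Tis11 kd. With LPS they were 6.59, 6.44 and 7.08 in GFP kd and 6.59, 6.87 and 6.77 in Tis11 kd. The 4 group means lay within 0.13 of each other, from 6.61 ± 0.25 in GFP kd through 6.64 ± 0.20 in Tis11 kd and 6.70 ± 0.33 in GFP kd with LPS to 6.75 ± 0.14 in Tis11 kd with LPS. The steps between neighbours were smaller than their SDs. The interval of the Tis11 kd difference over both LPS states ran from −0.25 to 0.32, and that of the LPS difference over both dsRNAs from −0.19 to 0.38.

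Both ferritin genes lie next to each other in the RefSeq annotation, and their proteins form a single shell. Over the 12 arrays, Fer1HCH and Fer2LCH varied together, with a Pearson r of 0.64 (permutation p = 0.025) and a Spearman rho of 0.71 (permutation p = 0.011), and this was the 1 relation tested. Taken as deviations from group means, r was 0.67 (permutation p = 0.032) and rho 0.50 (permutation p = 0.13). Without GFP kd repeat 1 and Tis11 kd repeat 1, the 2 arrays farthest from the Fer1HCH median, r was 0.58 (permutation p = 0.078) and rho 0.65 (permutation p = 0.048). The Pearson p was thus no longer under 0.05, over 10 arrays with a narrower range of Fer1HCH. A repeat number holds only 4 arrays, too few for a value of its own. The relation is not particular to the ferritins. Fer2LCH with Mvl (r = 0.92), Tsf2 with Fer2LCH (r = 0.80) and Tsf2 with Mvl (r = 0.73) were closer over the 12 arrays, and the remaining member pairs less close. Fer1HCH (r = 0.88) and Fer2LCH (r = 0.80) both follow the axis between repeats described below, for which the permutations make no allowance.

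**Figure D2:**
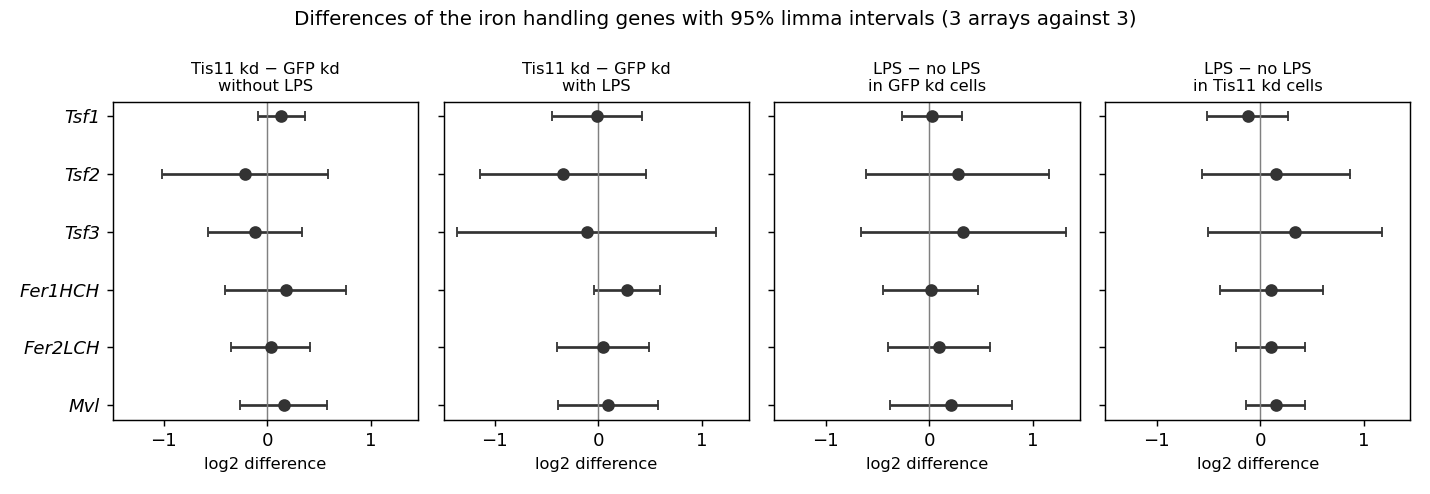
Log2 differences of the 6 iron handling genes (points) with 95% intervals from limma (bars), in the 4 comparisons of 3 arrays against 3. All 24 intervals include 0, and the widest belong to Tsf3 and Tsf2.

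Tsf1, the secreted transferrin of the hemolymph, was at a low signal by all 3 of its probe sets. Their means over the 12 arrays were 5.55, 4.92 and 3.44, within or below the range given above for markers of other cell types. The brightest of them read 5.44, 5.53 and 5.56 in GFP kd, and 5.52, 5.71 and 5.70 in Tis11 kd. With LPS it read 5.42, 5.43 and 5.76 in GFP kd and 5.59, 5.78 and 5.20 in Tis11 kd. Values of all 4 groups overlapped, and both the highest and the lowest array belong to Tis11 kd with LPS. The group means were 5.51 ± 0.06 in GFP kd, 5.52 ± 0.29 in Tis11 kd with LPS, 5.54 ± 0.19 in GFP kd with LPS and 5.65 ± 0.11 in Tis11 kd, with steps between neighbours no larger than the larger SD.

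The LPS difference of Tsf1 was 0.03 in GFP kd cells (SE 0.12, 95% interval −0.26 to 0.32) and −0.12 in Tis11 kd cells (SE 0.16, 95% interval −0.51 to 0.26). Averaged over both dsRNAs it was −0.05, with an interval from a 0.825-fold to a 1.13-fold signal. At this signal, close to background, the interval bounds the measured signal and not the mRNA. The other probe sets of Tsf1 ranged from 4.67 to 5.18 and from 3.34 to 3.58 over the 12 arrays. In the same LPS arrays 5 of the 6 immune mRNAs named above rose by at least 3.48. The remaining one, Drs, had means without LPS of 5.35 in GFP kd and 5.25 in Tis11 kd. It differed by 0.96 over both dsRNAs and did not pass.

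Tsf2, a membrane-bound transferrin that is also a part of the septate junctions of epithelia, was clearly expressed and varied much between repeats. It read 7.03, 7.24 and 8.13 in GFP kd and 7.78, 6.89 and 7.07 in Tis11 kd. With LPS the values were 7.53, 7.34 and 8.35 in GFP kd and 7.37, 7.88 and 6.95 in Tis11 kd. The highest value of each group was in repeat 3 of both GFP kd groups, in repeat 1 of Tis11 kd and in repeat 2 of Tis11 kd with LPS. The group means were 7.25 ± 0.47 in Tis11 kd, 7.40 ± 0.46 in Tis11 kd with LPS, 7.47 ± 0.58 in GFP kd and 7.74 ± 0.53 in GFP kd with LPS. No step in this order exceeded the SDs.

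Its difference between Tis11 kd and GFP kd was −0.22 without LPS (SE 0.34) and −0.34 with LPS (SE 0.33), the latter with a 95% interval from −1.14 to 0.46 and a range from −0.58 to −0.037 without 1 array. The LPS difference was 0.27 in GFP kd (SE 0.37) and 0.15 in Tis11 kd cells (SE 0.30). Their 95% intervals reached from −0.61 to 1.16 and from −0.56 to 0.87, so that a doubling of Tsf2 by LPS was outside the interval in Tis11 kd cells only.

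Tsf3, the third and least studied transferrin, had the widest spread of the members. Its values were 7.01, 6.59 and 6.84 in GFP kd, and 6.65, 7.05 and 6.38 in Tis11 kd. With LPS they were 7.33, 6.20 and 7.89 in GFP kd and 7.50, 7.38 and 6.21 in Tis11 kd. Both LPS groups hold 2 arrays above all those without LPS and 1 array below all of them, GFP kd with LPS repeat 2 and Tis11 kd with LPS repeat 3. The group means, from low to high, were 6.69 ± 0.33 in Tis11 kd, 6.81 ± 0.21 in GFP kd, 7.03 ± 0.72 in Tis11 kd with LPS and 7.14 ± 0.86 in GFP kd with LPS, with steps smaller than the SDs.

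The LPS difference of Tsf3 was 0.33 in GFP kd (SE 0.41, 95% interval −0.66 to 1.32) and 0.34 in Tis11 kd cells (SE 0.36, 95% interval −0.51 to 1.18). It was the largest LPS difference among the members and did not pass, with an unadjusted limma p of 0.29 over both dsRNAs. The Tis11 kd difference was −0.12 without LPS and −0.11 with LPS. The pooled SD within groups was 0.59 for Tsf3 and 0.51 for Tsf2, against a median of 0.26 over all those whose mean was 6 or more.

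Mvl, the fly relative of the mammalian NRAMP metal transporters, was expressed in all arrays. It read 8.38, 8.27 and 8.88 in GFP kd, and 8.84, 8.64 and 8.53 in Tis11 kd. With LPS it read 8.50, 8.49 and 9.18 in GFP kd, and 8.81, 8.89 and 8.75 in Tis11 kd. Repeat 3 was the highest in both GFP kd groups, and the 3 values in Tis11 kd with LPS lay within the range of GFP kd with LPS. The group means were 8.51 ± 0.33 in GFP kd, 8.67 ± 0.16 in Tis11 kd, 8.72 ± 0.39 in GFP kd with LPS and 8.81 ± 0.07 in Tis11 kd with LPS, and adjacent means were closer than the larger of their SDs. Over both dsRNAs the LPS difference was 0.18 (SE 0.14, 95% interval −0.13 to 0.50), and over both LPS states the Tis11 kd difference was 0.13 (SE 0.14, 95% interval −0.19 to 0.44).

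Across the members, the differences between Tis11 kd and GFP kd went both ways. Over both LPS states 4 of the 6 genes were above 0 and 2 below, with a median of 0.05 against 0.01 over all probe sets. For LPS in GFP kd cells all 6 were above 0, with a median of 0.15 against −0.02 over all probe sets, and in Tis11 kd cells 5 of 6 were, with a median of 0.13 against 0.01. The former direction hangs on 1 array, because without GFP kd with LPS repeat 3 all 6 differences were below 0. Of all 18769 probe sets, 10374 were above 0 for Tis11 kd over both LPS states. For LPS, 8130 were above 0 in GFP kd cells and 10079 in Tis11 kd cells. No representative probe set reached a log2 difference of 0.5 in either direction, a size that 0.405 and 0.613 percent of all probe sets reached for Tis11 kd without and with LPS, and 1.52 and 2.09 percent for LPS in cells with GFP dsRNA and with Tis11 dsRNA. The difference of the LPS effect between Tis11 kd and GFP kd ranged over the members from −0.15 to 0.10, and none passed.

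In the 6 genes, much of the variation lay between the repeats of a group. Each array's deviations from its group mean were taken over all 18769 probe sets, and the first principal axis of these deviations held 56.4 percent of the variance within groups. Each of the 4 groups had 1 array high on this axis, 1 near 0 and 1 low. The high arrays were GFP kd repeat 3, Tis11 kd repeat 1, GFP kd with LPS repeat 3 and Tis11 kd with LPS repeat 2, with scores from 0.31 to 0.41. The deviations of Tsf2 followed the axis with r = 0.96 over the 12 arrays, those of Fer1HCH with 0.88, Fer2LCH with 0.80 and Mvl with 0.77, while Tsf1 (r = 0.60) and Tsf3 (r = 0.55) followed it less. The sign of the axis was set so that Mvl is positive. These r values are descriptions over 12 arrays that share groups. Of all probe sets, 14.5 percent had an r of at least 0.7, and 29.8 percent had an r of at least 0.7 in either direction. Most of these probe sets have a mean under 6, unlike most of the iron genes. The share among brighter probe sets alone was not computed.

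**Figure D3:**
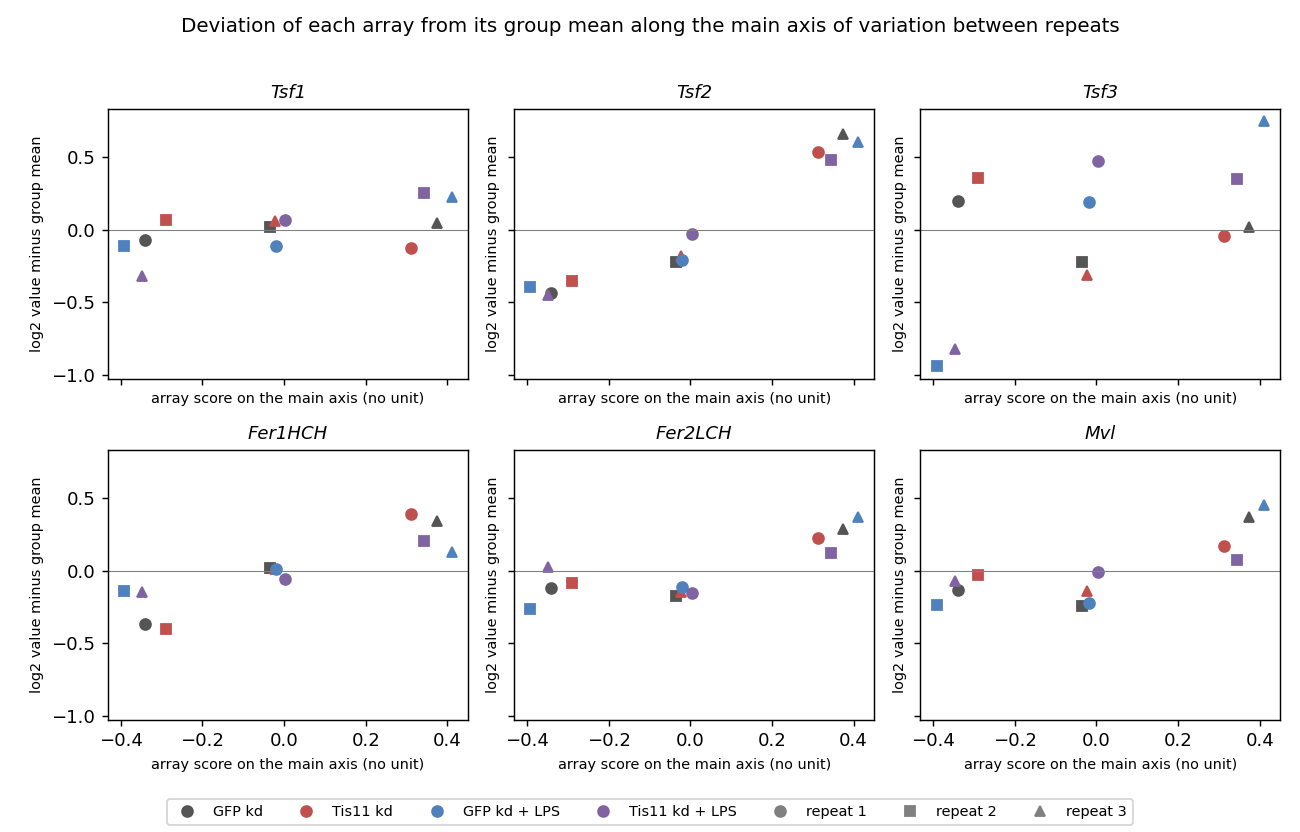
Deviation of each array from its group mean (log2 units) for the 6 iron handling genes, against the score of that array on the main axis of variation between repeats over all probe sets. Colours stand for groups and symbols for repeats. Tsf2 follows the axis most closely (r = 0.96), and the 4 arrays at the right are from 4 different groups.

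Some of the other iron genes and most hemocyte markers also varied along this axis. Alas, which catalyses the first step of heme synthesis, followed it with r = 0.99, and so did Coprox, a later enzyme of that pathway, and mfrn (mitoferrin, which brings iron into mitochondria). Alas ranged over 2.57 log2 units in the 12 arrays, from 8.98 in Tis11 kd with LPS repeat 3 to 11.55 in GFP kd repeat 3. Of the 6 heme synthesis genes measured 4 had an r of at least 0.7, and so had 7 of the 12 genes of iron-sulfur cluster assembly and 2 of the 8 of iron storage, transport and regulation. The median r of these 3 lists was 0.85, 0.76 and 0.35. Other genes went the opposite way, as galla-2 of the iron-sulfur list (r = −0.87) and Zip99C of the storage and transport list (r = −0.60). Among the 8 hemocyte markers 7 had a negative r, with a median of −0.88 over the list and −0.97 for the phagocytosis receptor eater, while the scavenger receptor crq had an r of 0.80 and NimC1 one of −0.13. The median log2 signal of the arrays, from 5.05 to 5.22, had an r of −0.12 with the axis. RMA makes the medians of arrays alike, so they cannot show how the raw signals differed. What separates these repeats was not tested.

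The probe sets most like each member were taken from 6283 that name 1 gene and have a mean of at least 6, by Pearson's r over the 12 arrays. For Tsf2 they were sinu (r = 0.99), pck (r = 0.98) and CG1998 (r = 0.98). Both sinu and pck encode claudin-like proteins of septate junctions. Mvl was most like CG3529 (r = 0.95), gammaSnap1 (r = 0.93), a vesicle fusion factor, and Fer2LCH itself (r = 0.92). Fer2LCH in turn was most like Nhe1, a sodium-proton exchanger (r = 0.96), CG1486 (r = 0.94) and JTBR (r = 0.93).

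Fer1HCH was most like CG5174, CG3793 and BORCS5 (r from 0.92 to 0.93), of which the last encodes a lysosome positioning factor in mammals. The genes closest to Tsf3 were CG4080 (r = 0.94), CG6701 (r = 0.92) and Atg18b (r = 0.92), a relative of the autophagy factor Atg18. Tsf1 had no group mean of 6 and was not ranked. Among the members, Fer2LCH and Mvl were the most alike pair, followed by Tsf2 and Fer2LCH (r = 0.80), while Tsf3 and Fer1HCH had r = 0.09. As the values of 12 arrays share the axis above, these r values describe the arrays.

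**Figure D4:**
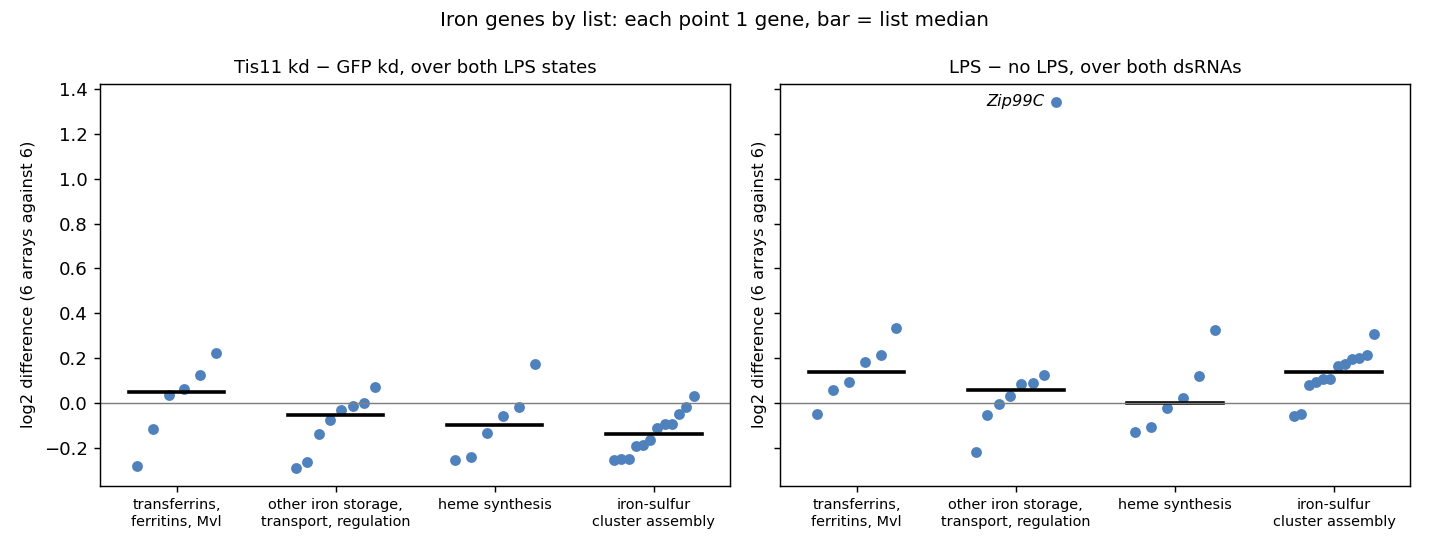
Log2 differences of the iron genes (points, 1 per gene) by list, for Tis11 kd against GFP kd over both LPS states (left) and LPS against no LPS over both dsRNAs (right). Bars are list medians. Zip99C stands apart for LPS at 1.34, while the other genes lie between −0.29 and 0.33 in both panels.

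Around the 6 members, 8 of 9 further genes of iron storage, transport and regulation, 6 of 7 of heme synthesis and 12 of 13 of iron-sulfur cluster assembly had a probe set of their own. None of these 26 passed in any comparison. For Tis11 kd over both LPS states 7 of 8, 5 of 6 and 11 of 12 were below 0, as were 8395 of all 18769 probe sets. The list medians were −0.05, −0.10 and −0.14 against 0.01 over all probe sets. The largest differences were Irp-1B (−0.29, SE 0.22), an aconitase-like relative of iron regulatory protein, and mfrn (−0.26, SE 0.37) in the first list. In the heme list they were FeCH, the ferrochelatase that inserts iron into heme (−0.26, SE 0.29), and Alas (−0.24, SE 0.50). Among the iron-sulfur genes they were the ferredoxin Fdx2 (−0.26, SE 0.17) and the cysteine desulfurase Nfs1 (−0.25, SE 0.29). Without 1 array, mfrn ranged from −0.47 to −0.040, FeCH from −0.43 to −0.067 and Nfs1 from −0.42 to −0.048. By their representative probe sets, all 6 of these genes lie on the axis between repeats with an r of at least 0.82. The part of the axis in their differences was not tested. FeCH had 3 probe sets, and those not used had an r of 0.91 and, at a mean signal of 5.55, of −0.31.

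Zip99C, a ZIP family transporter that in flies loads iron into the secretory pathway where ferritin is filled, had the largest LPS difference of the iron genes. It read 11.72, 10.50 and 10.16 in GFP kd and 10.21, 11.48 and 10.40 in Tis11 kd. With LPS it read 12.11, 12.12 and 11.89 in GFP kd and 12.42, 12.09 and 11.89 in Tis11 kd. All 6 LPS arrays were above all 6 without LPS, a separation in either direction that 0.677 percent of all probe sets had. The difference was 1.25 in GFP kd (SE 0.39) and 1.44 in Tis11 kd cells (SE 0.33), and 1.34 over both dsRNAs (SE 0.28, 95% interval 0.72 to 1.96), a 2.54-fold level.

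By limma over all probe sets this difference of Zip99C had an unadjusted p of 6.4e-04 and an adjusted p of 0.25, and so did not pass. Without 1 array or another it ranged from 1.18 to 1.57. It passed only without GFP kd repeat 1, the highest array without LPS, where it was 1.57 with an adjusted limma p of 0.033. The groups without LPS had SDs of 0.82 and 0.69, those with LPS 0.13 and 0.27, so that the spread lay in the cells without LPS. Its deviations had an r of −0.60 with the axis between repeats. Between Tis11 kd and GFP kd Zip99C differed by −0.09 without LPS and 0.09 with LPS.

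Over both dsRNAs, the remaining LPS differences in these lists were within 0.33. In Tis11 kd cells alone they reached 0.45 (CG13623, SE 0.47) and 0.41 (FeCH, SE 0.34). The largest beside Zip99C were Irp-1B (−0.22, SE 0.22) in its list, FeCH (0.33, SE 0.29) and Alas (−0.13, SE 0.50) in the heme list, and the iron-sulfur scaffold candidate CG13623 (0.31, SE 0.43) and the ferredoxin Fdx1 (0.21, SE 0.25). Over both dsRNAs the medians of the 3 lists were 0.06, 0.00 and 0.14, against 0.00 over all probe sets. Of the other genes, Fer3HCH, the mitochondrial ferritin, and the multicopper oxidases MCO1 and MCO3 had means of 4.81, 4.18 and 4.77, close to background. The iron regulatory protein Irp-1A, which in flies binds the iron-responsive element of Fer1HCH mRNA, ranged over 0.58 in the 12 arrays.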

How the data were processed

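Total RNA from the 12 SL2 samples was hybridised to Affymetrix Drosophila Genome 2.0 arrays. The authors made the deposited log2 values with RMA (background correction, quantile normalization and median polish). How many arrays entered each normalization is not given in the sources used here. The table has 18952 probe sets, and 183 controls were left out. The values carry no read depth, and the 3 arrays per group limit the precision.

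Each pair of groups was tested on its own 6 arrays, and the averages and the interaction on all 12, with limma 3.58.1 (lmFit and eBayes, two-sided, under R 4.3.3). P-values were adjusted over all 18769 probe sets (Benjamini-Hochberg, 0.05). Each sets a difference against the variance between biological repeats, which eBayes draws towards that of all probe sets. The fits were also run on simulated data with noise independent between probe sets. Such noise lacks the axis between repeats, so that run does not show how the fits behave on these arrays. The platform annotation names 1 gene for 13646 of the 18769 probe sets and several for 402. Where a gene had several probe sets, the one brightest on average stands for it.

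The text names all members, the 3 most similar genes of each member with a group mean of at least 6, and of each pathway list the genes that passed or, where none did, the 2 with the largest averaged differences. Genes beyond this rule (Coprox, eater, crq, NimC1, galla-2, Irp-1A, Fer3HCH, MCO1, MCO3 and the immune mRNAs) were named after their values were seen. The members and lists were chosen with earlier results of these data known. The permutation tests of the ferritin relation used 100000 resamples, drawn within groups for the deviations. The axis between repeats was computed after the data were seen. Listed genes that share or lack a probe set (Ho, AttA, AttB, Syt1 and Mhc among them) were not analysed here. Neither was Dpt, whose listed name matched no annotated gene. Results were recomputed with a replicate block, with a single fit of all 12 arrays, without probe sets of a mean under 6, after median centring or a second quantile normalization, with an intensity trend in eBayes, with 1 probe set per gene, by the methods' t-test, and without each array in turn. RefSeq names are from the Release 6 assembly. Python 3.11.15 and matplotlib 3.10.9 drew the figures.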

Additional observations from a re-analysis of the deposited data

How the results depend on the processing

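No probe set of the iron genes passed under any alternative in the comparisons where it was run, and the count was 0 with the replicate block too. The methods' t-test and the single fit of 12 arrays were run in 4 of the 7 comparisons, the limit on the mean left 5 of the 8 probe sets (none of Tsf1), and 1 probe set per gene left 6. The count over all probe sets moved more. For LPS in Tis11 kd cells it was 15, and 4 with the replicate block, 6 with 1 probe set per gene, 0 by the methods' t-test after Benjamini-Hochberg, and 6 to 26 without 1 array. For LPS in GFP kd cells it was 10, and 5 with 1 probe set per gene, 1 by the methods' t-test, and 0 to 14 without 1 array. For LPS over both dsRNAs it was 29, and 18 to 38 without 1 array. The repeat numbers did not pair the samples, as 3 of the 18 same-numbered pairs had deviations correlated above 0.1 (range −0.76 to 0.82), and an array correlated best with its own number in 6 of 36 cases. Whatever their numbers, arrays at a like place on the axis between repeats did correlate between groups. The 3 same-numbered pairs above 0.1 were pairs of such arrays. The r of such arrays was 0.52 to 0.84 for the high arrays, 0.40 to 0.72 for those near 0 and 0.42 to 0.85 for the low ones. The axis was computed from these same deviations, so these r values are no separate support for it. No fit included this axis, so its variation stays in the SEs, intervals and p-values. What these arrays share was not tested. The r of Fer1HCH with Fer2LCH was 0.58 without the 2 arrays farthest from the median (permutation p = 0.078).

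Of the alternatives that keep all arrays, only median centring and a second quantile normalization can move a difference of group means. Under these, 2 of 100 values had the other sign. Both are in Tis11 kd against GFP kd with LPS, where Tsf3 was 0.0015 after quantile normalization again and Fer2LCH −0.035 with each array centred on its median. The cause was not tested. Without 1 array, 44 of 444 values had the other sign and 1 passed (Zip99C for LPS, without GFP kd repeat 1). Of the 50 differences 24 changed sign without 1 array or another, 22 kept it but moved by over 1.5 times, and 4 moved less. The lowest and highest values of the 24 were as follows. For Tis11 kd without LPS, Tsf2 had −0.49 and 0.11, Tsf3 −0.30 and 0.034, Fer1HCH −0.019 and 0.38, and Fer2LCH −0.082 and 0.18. For Tis11 kd with LPS, Tsf1 had −0.14 and 0.15, Tsf3 −0.58 and 0.30, Fer2LCH −0.088 and 0.23, and Mvl −0.024 and 0.32. For LPS in GFP kd cells, Tsf1 had −0.086 and 0.082, Tsf2 −0.028 and 0.60, Tsf3 −0.047 and 0.80, Fer1HCH −0.17 and 0.18, Fer2LCH −0.097 and 0.23, and Mvl −0.013 and 0.40. For LPS in Tis11 kd cells, Tsf1 had −0.25 and 0.038, Tsf2 −0.086 and 0.42, and Fer1HCH −0.093 and 0.30. For Tis11 kd over both LPS states, Tsf1 had −0.0014 and 0.14, Tsf3 −0.35 and 0.090, Fer2LCH −0.028 and 0.13, and Alas −0.52 and 0.057. For LPS over both dsRNAs, Tsf1 had −0.11 and 0.032, Fer1HCH −0.041 and 0.16, and Alas −0.43 and 0.17. Signals near background, as those of Tsf1, limit what these arrays can show.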
